A study of Homo sapiens with 6 samples.

Results

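The genes described here are 10 members of the AP-1 group of transcription factors: JUN, JUNB and JUND, FOS, FOSB, FOSL1 and FOSL2, ATF3, and the small MAF genes MAFF and MAFK. They were chosen by name, and each symbol stood in 1 row of the deposited table of 61859 genes. All 10 passed the filter on low values, which kept the 18460 genes whose normalized counts (read counts divided by a size factor of the library) averaged 10 or more. The samples were 6 RNA samples of OSC19SSZR, a human oral squamous cell carcinoma line resistant to sulfasalazine, a drug that blocks the cystine transporter xCT. Of these, 3 received control siRNA and 3 received siRNA against FOXA1, a forkhead transcription factor of epithelia, by lipid transfection (Lipofectamine RNAiMAX), and were grown for 48 h in DMEM with fetal bovine serum before total RNA was purified. Only this resistant line was used, so resistance is common to both groups, and no sensitive parent line was compared here. The labels do not say whether replicates were separate cultures, so the p-values rest on a spread that may be only technical. Per-sample values are given in the order of replicates 1, 2 and 3, and libraries that received FOXA1 siRNA are called knockdown libraries.

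AP-1 is not a single protein but a set of basic leucine zipper (bZIP) dimers. JUN proteins pair with each other or with FOS proteins, while FOS proteins need a JUN partner to bind DNA. ATF3 pairs with JUN proteins or with itself, and the small MAF proteins lack an activation domain and pair with NRF2, its relatives and BACH proteins. Many AP-1 genes are immediate early genes, which growth factors, stress kinases and adhesion switch on within minutes and whose mRNAs decay quickly. In squamous epithelia AP-1 dimers act on genes of differentiation, matrix turnover and the cell cycle.

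JUN and ATF3 rose with FOXA1 siRNA to more than 2-fold their control levels, FOSB and JUNB rose by less, and FOS fell. FOSL1, FOSL2, JUND, MAFF and MAFK did not pass the test. Thus 4 of the 10 members rose and 1 fell at an adjusted p of 0.05 (limma on log2 normalized counts, adjusted over all 18460 genes), against 26.8% of all tested genes that rose and 25.0% that fell. That is 5 of 10 called in either direction, against 51.8% of all tested genes, so the number of members called was near the background. With equal library totals in place of the deposited size factors, 3594 tested genes rose and 5967 fell, against 4954 and 4617, and 3 members rose and 1 fell. With quantile normalization 4 members rose and 0 fell, and 4976 of all tested genes rose and 4458 fell. A rise of at least 2-fold that passed the test was seen in 2 of the 10 members and in 1.65% of all tested genes. With equal library totals JUN was just under 2-fold (log2 difference 0.99), which left 1 member. The share of all tested genes at 2-fold under that setting was not computed. The median log2 difference of the members was 0.14 and that of all tested genes 0.0039. The groups did not overlap for 5 members, those that were called, and for 57.6% of all tested genes.

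**Figure D1:**
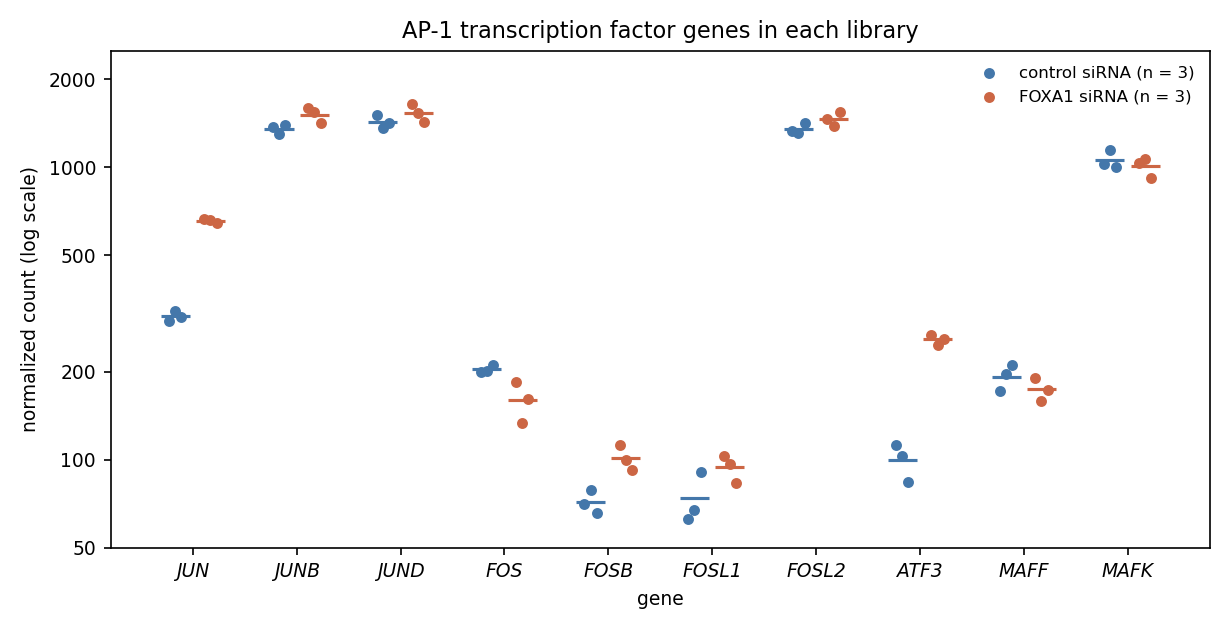
Normalized counts (log scale) of the 10 AP-1 genes in each library, with control siRNA in blue and FOXA1 siRNA in orange; points are libraries and bars are means of 3. JUN and ATF3 are separated by wide gaps, whereas the groups of FOSL1, FOSL2, JUND, MAFF and MAFK overlap.

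The libraries held 16510125 to 25732569 reads. FOXA1 itself lay between 1378 and 1477 normalized counts in the controls and between 189 and 247 after knockdown (log2 difference -2.79 ± 0.09 SE, limma adjusted p = 3.32e-18). Not all squamous epithelial markers were abundant. KRT5, a basal keratin, lay at 31358 to 32174 in the controls and 27416 to 28699 after knockdown, and TP63 lay at 4779 to 5029 and 3633 to 3810. The keratin KRT14 was low, at 16.1 to 55.2 in the controls and 31.1 to 77.2 after knockdown, and did not pass the test. KRT17 (log2 difference 1.01 ± 0.05 SE), SFN (1.14 ± 0.05) and EPCAM (0.14 ± 0.05) rose, KRT5 (-0.18 ± 0.04) and TP63 (-0.40 ± 0.05) fell, and all 8 markers summed to 52531 to 54772 and 58116 to 60883. Control replicate 3 stood apart in KRT6A, a keratin of activated keratinocytes, with 802 normalized counts against 50.4 and 38.3 in the other controls and 64.0 to 178 after knockdown. Without that library 5 of the 10 members rose and 0 fell, while 4485 of all 18460 tested genes rose and 4075 fell. Of 7 fibroblast markers, 3 (DCN, LUM and PDGFRA) were at 0 in every library, and the list summed to 148 to 165 in the controls and 92.5 to 137 after knockdown, nearly all of it COL1A1. The 6 blood cell markers summed to 103 to 114 and 77.2 to 102, with HBB at 0, and the 4 endothelial markers to 542 to 573 and 279 to 303, all but a few counts of the latter from CDH5 while PECAM1 reached at most 2.02. Mitochondrial transcripts made up 7.19% to 7.68% and 6.65% to 7.11% of the normalized counts. The part of these differences in the results below was not tested. In bulk RNA, fewer cells expressing a gene and less of its RNA per cell cannot be told apart.

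RefSeq promoter windows (250 bases before to 50 after a gene's start, GRCh38.p14) were at hand for 8 of the 10 members. They were searched on both strands for TGACTCA, the classical AP-1 site (TGAGTCA on the other strand), for TGACGTCA, the cyclic AMP response element, for TGACATCA, the letters of the proximal site long known in the JUN promoter, for TGTTTAC and TATTTAC, which forkhead proteins can bind, and for the CArG box of serum response elements. The words were chosen with the values known, and none of the matches below overlaps another. The windows of JUN and ATF3 each held TGACATCA, as did 2.61% of all 35116 windows of this length. Because this word was taken from the JUN promoter, its match in JUN was given by the choice of word. JUNB held TGTTTAC (3.42% of all windows), and the windows of JUND and MAFF held TGACGTCA (1.85%). FOSL2 held TGACTCA just after its start (4.95% of all windows). TATTTAC (2.67%) and the CArG box (1.29%) matched in none of these windows. Sites more than 250 bases before a start, in FOS as in the other members, were not searched. A match is a description of letters and not evidence of binding. The sequences of JUN and ATF3 are shown for the word they share, that of JUNB for its forkhead word, and that of FOS as the member that fell, with matched words in capitals. They read 5′ to 3′ along the gene's strand and stop before any start annotated in RefSeq or GENCODE 29, except that of JUN, which lies inside the longer GENCODE transcript and is cut to 30 bases.
JUN, chr1:58784096-58784125, minus strand: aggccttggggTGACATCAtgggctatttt
ATF3, chr1:212565157-212565333, plus strand: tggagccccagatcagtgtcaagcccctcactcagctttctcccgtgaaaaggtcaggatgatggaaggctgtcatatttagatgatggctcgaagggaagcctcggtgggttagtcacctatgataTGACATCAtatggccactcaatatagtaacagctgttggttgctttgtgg
JUNB, chr19:12791236-12791485, plus strand: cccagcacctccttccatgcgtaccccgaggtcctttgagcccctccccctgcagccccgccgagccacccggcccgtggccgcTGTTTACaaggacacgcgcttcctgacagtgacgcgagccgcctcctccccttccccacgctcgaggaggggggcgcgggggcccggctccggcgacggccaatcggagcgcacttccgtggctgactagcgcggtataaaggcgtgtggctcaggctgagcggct
FOS, chr14:75278578-75278773, plus strand: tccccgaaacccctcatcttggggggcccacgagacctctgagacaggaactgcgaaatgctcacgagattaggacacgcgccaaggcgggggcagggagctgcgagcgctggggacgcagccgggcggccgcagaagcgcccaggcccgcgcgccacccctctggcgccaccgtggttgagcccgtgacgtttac

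Counted from the first base of the transcript in RefSeq, TGACATCA begins at position -67 in JUN and at -123 in ATF3, and TGTTTAC at -166 in JUNB. The ATF3 window belongs to the more upstream of 2 RefSeq starts in the table, and the window of the other start held none of the words. The deposited values are sums over each gene and do not show which start was used.

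JUN (ENSG00000177606; GRCh38 chromosome 1, 58780788 to 58784327, minus strand, protein-coding, a single exon) encodes the founding AP-1 subunit and a substrate of the JNK kinases. Control libraries held 299, 322 and 308 normalized counts of it, and knockdown libraries 665, 661 and 644. Every knockdown library was about double every control library, and the spread within each group was small: 309 ± 11.7 against 657 ± 11.0 (SD, n = 3 each). The log2 difference was 1.08 ± 0.08 (SE, limma adjusted p = 2.64e-12), higher than that of 98.7% of all tested genes. It lay between 0.99 and 1.11 over 17 processing alternatives and passed in all of them.

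JUNB and JUND are JUN relatives of weaker activity on many promoters, and in growing cells they often oppose it. JUNB (chromosome 19, 12791496 to 12793315, plus strand) was at 1369, 1299 and 1394 in the controls and at 1589, 1538 and 1411 after knockdown. The lowest knockdown library stood just above the highest control. The log2 difference was 0.16 ± 0.06 (SE, limma adjusted p = 0.0257), or a mean 11.7% higher. This rise did not pass with equal library totals (0.06, limma adjusted p = 0.415) or quantile normalization (0.09, adjusted p = 0.228). Nor did it pass with limma's plain variance model, without trend and robust options (adjusted p = 0.111), or with DESeq2 (0.0507), while in the authors' deposited table its adjusted p was 0.048. It was also lost without control replicate 2 (0.128), knockdown replicate 1 (0.133) or knockdown replicate 2 (0.0733), and its adjusted p ran from 0.00261 to 0.415 over all 17 alternatives. The whole of JUNB lies inside HOOK2 on the opposite strand, with 259 of its 1820 exonic bases shared. The strandedness of the libraries is not stated, and HOOK2 was at means of 1452 in the controls and 1398 after knockdown.

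JUND (chromosome 19, 18279760 to 18281622, minus strand) was at 1505, 1365 and 1414 in the controls and 1640, 1530 and 1422 after knockdown, and the groups overlapped. Its log2 difference of 0.10 ± 0.06 (SE, limma adjusted p = 0.178) did not pass, although it did without knockdown replicate 3 (0.15, adjusted p = 0.0298, the lowest of 17 alternatives, whose highest was 0.993). Among the 2307 tested genes with a mean of 1000 to 2000, the range that holds JUNB and JUND, the median log2 difference was 0.09 and 42.7% rose. The value of JUND thus lay near the median of genes of its level, and that of JUNB (0.16) lay somewhat above it. JUN, at 1.08, lay far above the median of 0.04 in its range of 300 to 1000.

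FOS (ENSG00000170345; chromosome 14, 75278774 to 75282230, plus strand), the classical immediate early partner of JUN, went the other way. The control libraries read 199, 201 and 211 normalized counts, the knockdown libraries 184, 134 and 161. The control values were tight and the knockdown values spread widely below them, 204 ± 6.74 against 160 ± 25.4 (SD, n = 3 each). The log2 difference was -0.36 ± 0.12 (SE, limma adjusted p = 0.0146). Knockdown replicate 2 was the lowest, and without it the log2 difference was -0.24 and did not pass (adjusted p = 0.123). The fall also did not pass without control replicate 3 (adjusted p = 0.0527), with quantile normalization (0.0627) or with limma's plain variance model (0.0594), and its adjusted p ran from 0.00308 to 0.123 over 17 alternatives. In the authors' deposited table the log2 fold change of FOS was -0.36 with an adjusted p of 0.0721. Among the 3418 tested genes with a mean of 100 to 300, the range that holds FOS and ATF3, the median log2 difference was -0.05. In that range 20.8% rose and 30.2% fell.

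FOSB (chromosome 19, 45467995 to 45475179, plus strand), an immediate early gene with a long-lived truncated isoform that gene-level counts do not resolve, was the least abundant member per length. It read 70.4, 78.7 and 65.9 in the controls and 113, 100.2 and 92.5 after knockdown, so every knockdown library exceeded every control. The log2 difference was 0.50 ± 0.16 (SE, limma adjusted p = 0.0104). Without knockdown replicate 1, the highest library, it did not pass (0.42, adjusted p = 0.0584, the highest of 17 alternatives, of which the lowest was 0.0015). In the authors' deposited table its adjusted p was 0.0599. The gene lies within the span of ERCC1 on the opposite strand but shares no exonic base with it, and ERCC1 was at means of 1825 and 1849. Among the 1761 tested genes with a mean of 50 to 100, the range that holds FOSB, the median log2 difference was -0.09. In that range 13.5% rose and 27.4% fell.

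FOSL1 and FOSL2 encode FRA1 and FRA2, FOS relatives without the strong activation domain of FOS, and FRA1 is often high in invasive carcinoma. FOSL1 (chromosome 11, 65892049 to 65900573, minus strand) was low here, at 62.8, 67.6 and 91.0 in the controls and 103, 96.4 and 83.0 after knockdown. Control replicate 3 lay inside the knockdown range, and the log2 difference of 0.36 ± 0.17 (SE, limma adjusted p = 0.0814) did not pass. It did pass without that library (0.52, adjusted p = 0.0234) and with quantile normalization (0.51, adjusted p = 0.0159), and its adjusted p reached 0.279 among the other alternatives. FOSL2 (chromosome 2, 28392448 to 28417312, plus strand) was the most abundant FOS gene, at 1330, 1306 and 1421 in the controls and 1464, 1380 and 1541 after knockdown. Its groups overlapped and it did not pass (0.11 ± 0.06 SE, limma adjusted p = 0.114), nor under any of its 17 alternatives.

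ATF3 (ENSG00000162772; chromosome 1, 212565334 to 212620777, plus strand), a stress-induced factor that represses as a homodimer and can activate together with JUN, had the largest change of the 10. Controls held 112, 103 and 83.7 normalized counts, and knockdown libraries 268, 247 and 259. The lowest knockdown library held more than double the highest control library, and the means were 99.6 ± 14.6 and 258 ± 10.3 (SD, n = 3 each). The log2 difference was 1.37 ± 0.13 (SE, limma adjusted p = 4.43e-10), which exceeded that of 99.5% of all tested genes. It ranged from 1.26 to 1.46 over 17 alternatives and passed in all of them.

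The small MAF genes did not pass in either direction. MAFF (chromosome 22, 38200767 to 38216511, plus strand), the stress-inducible member, was at 171, 196 and 210.3 in the controls and 191, 159 and 173 after knockdown (log2 difference -0.14 ± 0.12 SE, limma adjusted p = 0.334). MAFK (chromosome 7, 1530714 to 1543043, plus strand) was at 1021, 1149 and 999 in the controls and 1035, 1069 and 918 after knockdown (-0.07 ± 0.07 SE, adjusted p = 0.423). The groups overlapped for both genes, and neither passed under any of 17 alternatives. MAFK shares 809 exonic bases with TMEM184A on the opposite strand, whose mean was 1103 in the controls and 873 after knockdown, and MAFF lies in part within PLA2G6 (285 and 164) without a shared exonic base.

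**Figure D2:**
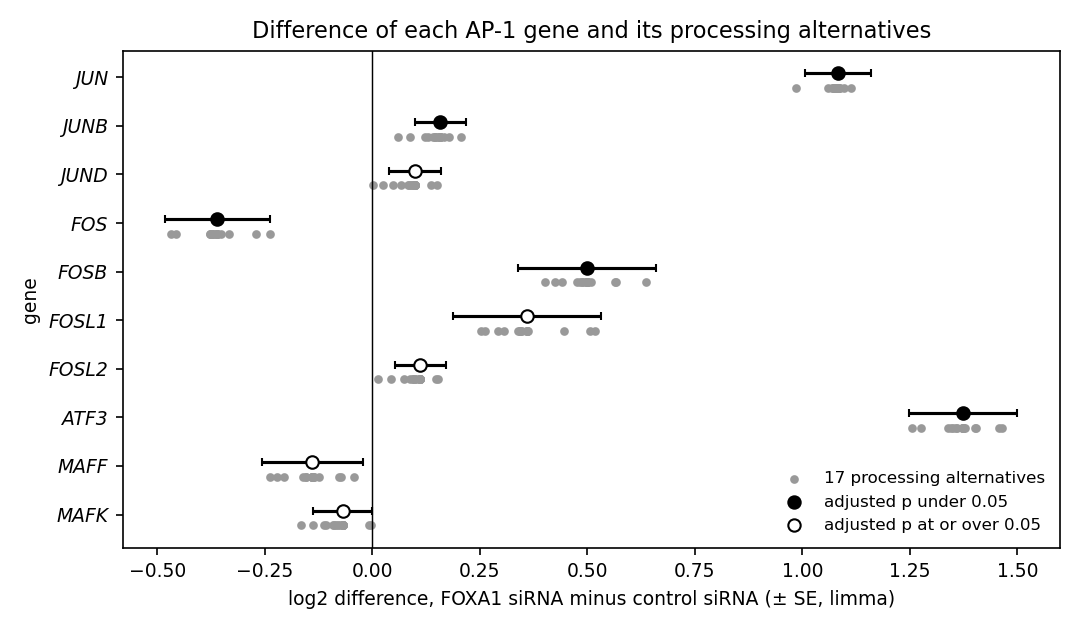
Log2 difference of each AP-1 gene (black, ± SE, filled where the limma adjusted p is under 0.05), with the values under 17 processing alternatives in grey. JUN at 1.08 and ATF3 at 1.37 stand apart from the other members, and no grey point lies on the other side of 0 from its black point.

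Levels were compared between members per kilobase of the longest GENCODE 29 transcript. In the controls JUND and JUNB were the most abundant, at 767 ± 38.3 and 744 ± 27.1 normalized counts per kb (SD, n = 3), and their libraries overlapped. MAFK (314), FOSL2 (202), FOS (94.4) and JUN (87.4) followed, each without overlap with the next. MAFF (58.6), ATF3 (47.4) and FOSL1 (44.2) overlapped from one to the next, and FOSB was lowest at 19.0. After knockdown JUNB and JUND overlapped again at the top (831 and 822). JUN, at 185 ± 3.10, and ATF3, at 123 ± 4.90, stood above FOS (74.0 ± 11.8), so both genes had passed it in the order. With the length of all exons of a gene in place of the longest transcript, FOS (62.9 per kb) lay below JUN already in the controls.

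**Figure D3:**
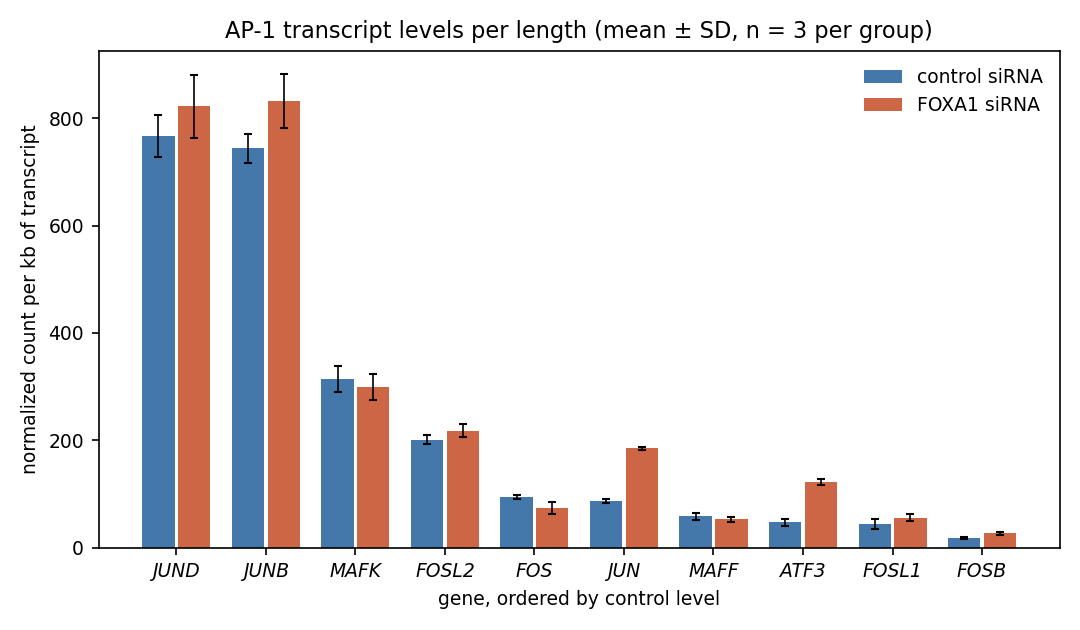
Normalized counts per kb of the longest transcript for each AP-1 gene, as mean ± SD of 3 libraries per group, in the order of the control levels. JUND and JUNB are the tallest bars in both groups, and JUN and ATF3 show the widest gaps between the groups.

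The make-up of each family was described on the same per-length scale, without a test. JUN made up 5.13% to 5.91% of the summed JUN family level in the control libraries and 9.67% to 10.6% in the knockdown libraries. FOS made up 25.7% to 26.7% and 17.6% to 21.6% of the FOS family, and FOSL2 held 55.5% to 57.2% and 55.2% to 60.7%. The JUN family held 65.8% to 68.5% and 67.5% to 68.9% of the sum over all 10 members, which overlapped between the groups. ATF3 held 1.66% to 2.22% and 4.38% to 4.83%. Thus JUNB and JUND remained the bulk of the JUN family in every library.

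Other bZIP genes that pair with these proteins were called about as often as genes in general. Of 20 listed, 13 were tested, 3 rose and 4 fell (median log2 difference -0.01), or 7 of 13 called against 51.8% of all tested genes. With equal library totals 3 of the 13 rose and 5 fell, where 3594 of all tested genes rose and 5967 fell. JDP2, a repressor that dimerizes with JUN and is a close relative of ATF3, was at 428, 444 and 478 in the controls and 210.1, 204 and 180.3 after knockdown. Every knockdown library lay far below every control, and the log2 difference was -1.18 ± 0.09 (SE, limma adjusted p = 2.62e-11). ATF4, which activates ATF3 in the integrated stress response, was at 2975, 2809 and 2906 in the controls and 4097, 4465 and 4639 after knockdown (0.60 ± 0.05 SE, limma adjusted p = 1.15e-10). NFE2L2, which encodes the small MAF partner NRF2, rose by less (0.21 ± 0.05), and this rise was lost under quantile normalization (0.02, adjusted p = 0.696, against a lowest value of 2.27e-06 in another alternative). NFE2L3 rose (0.42 ± 0.10), and NFE2L1 (-0.24 ± 0.05) and NRL (-0.61 ± 0.13), a large MAF relative, fell. MAF, named after its values were seen because its mean was under 50, fell from 31.9 ± 6.43 to 4.55 ± 3.63 (SD, n = 3 each, log2 difference -2.76 ± 0.45). MAFG, the remaining small MAF gene, did not pass (-0.03 ± 0.07, adjusted p = 0.757).

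Of 28 other immediate early genes listed, 22 were tested, 10 rose and 5 fell (median log2 difference 0.21), against 26.8% and 25.0% of all tested genes (median 0.0039). That is 15 of 22 called, against 51.8% of all tested genes. With equal library totals 9 rose and 5 fell (median 0.11), where 3594 of all tested genes rose and 5967 fell (median -0.09). KLF6, a zinc finger factor, stood at 241, 245 and 232 in the controls and 487, 441 and 452 after knockdown (0.94 ± 0.09 SE, limma adjusted p = 5.3e-10). CCN1, a matrix protein (0.73 ± 0.12), DUSP1, a phosphatase of MAP kinases (0.64 ± 0.14), and KLF4 (0.57 ± 0.14) rose as well. BTG2, an antiproliferative gene, fell from 1799 ± 34.7 to 747 ± 46.7 (SD, n = 3 each, log2 difference -1.27 ± 0.06), and TRIB1 (-0.66 ± 0.07), NR4A2 (-0.57 ± 0.10) and MCL1 (-0.35 ± 0.05) fell too. The remaining fall was in NR4A1 (-0.70 ± 0.25), the lowest of the called genes in level, and it was lost with quantile normalization (adjusted p = 0.103), with DESeq2 (0.0737) and without control replicate 2 (0.0574), control replicate 3 (0.0662) or knockdown replicate 3 (0.12, the highest of its alternatives, of which the lowest was 0.0107). EGR1, a serum response gene like FOS, did not pass (-0.24 ± 0.14, adjusted p = 0.170). The log2 differences of JUN and ATF3 were above that of KLF6, the highest in this list.

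Of 31 kinases and regulators upstream of AP-1, all tested, 9 rose and 9 fell (median log2 difference 0.04), near the 26.8% and 25.0% of all tested genes. With equal library totals 5 of the 31 rose and 10 fell, where 3594 of all 18460 tested genes rose and 5967 fell. The largest change was in MAP2K6, a kinase that activates p38, at 177, 188 and 212 in the controls and 66.5, 44.0 and 32.0 after knockdown (-2.05 ± 0.20 SE, limma adjusted p = 5.51e-08). MAPK12 (-0.43 ± 0.06), a p38 gene, MAPK10 (-0.40 ± 0.13), a JNK gene, and MAPK3 (-0.35 ± 0.07), which encodes ERK1, fell. The fall of MAPK10 did not pass with quantile normalization (adjusted p = 0.0872) or without control replicate 1 (0.0558), and its lowest adjusted p among the alternatives was 0.00249. ELK3 (0.43 ± 0.07) and ELK1 (0.33 ± 0.07), partners of serum response factor at the FOS promoter, rose, as did RPS6KA5 (0.37 ± 0.09) and RPS6KA4 (0.25 ± 0.05), kinases of chromatin at immediate early genes.

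Of 29 listed symbols of textbook AP-1 target genes, 19 were tested, 5 rose and 5 fell (median log2 difference -0.06), which is near the 26.8% and 25.0% of all tested genes. With equal library totals 5 of the 19 rose and 8 fell, where 3594 of all tested genes rose and 5967 fell. With quantile normalization 4 of the 19 rose and 7 fell, where 4976 of all tested genes rose and 4458 fell. Genes that fell were CCND1, the cyclin D1 gene (-1.43 ± 0.05), PLAU, the urokinase gene, from 6849 ± 196 to 3583 ± 101 (SD, n = 3 each, -0.93 ± 0.05), the stromelysin gene MMP10 (-0.85 ± 0.14) and the chemokine gene CXCL8 (-0.56 ± 0.16). The fall of CXCL8 did not pass without control replicate 1 (adjusted p = 0.0645), without knockdown replicate 2 (0.0559) or with limma's plain variance model (0.0703), and its lowest adjusted p among the alternatives was 0.00149. MMP1, the collagenase gene named after its values were seen because its mean was under 50, was at 28.5, 32.3 and 19.9 in the controls and 3.22, 4.55 and 1.19 after knockdown (-2.88 ± 0.47). Among the genes that rose were the laminin subunit genes LAMA3 (0.52 ± 0.07) and LAMB3 (0.22 ± 0.05), the ezrin gene EZR (0.50 ± 0.04) and the chromatin protein gene HMGA1 (0.42 ± 0.04). The rise of LAMB3 was lost with quantile normalization (0.04, adjusted p = 0.42, against 5.03e-06 at the lowest).

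Immediate early mRNAs are short-lived in part because proteins bind AU-rich elements in them, though not every such protein speeds decay. Of 11 genes for such binders, whatever their effect, and for deadenylation, 6 rose and 1 fell, against 26.8% and 25.0% of all tested genes. The median log2 difference was 0.23. With equal library totals 5 of the 11 rose and 3 fell, where 3594 of all tested genes rose and 5967 fell. Most of the 11 had means over 1000. Among all tested genes with a mean of 1000 to 2000, rises were more frequent, and 42.7% rose and 24.1% fell. The share above 2000 was not computed, and HNRNPD, KHSRP, CNOT1 and ZFP36L1 all had means above 2000 in both groups. The largest rises were in HNRNPD, which encodes AUF1 (0.48 ± 0.05), KHSRP (0.42 ± 0.05), the deadenylase scaffold CNOT1 (0.34 ± 0.05) and ZFP36L1 (0.30 ± 0.05). TIA1 fell (-0.18 ± 0.06), but not without control replicate 2 (-0.15, adjusted p = 0.0677, against 0.000274 at the lowest among the alternatives). ZFP36, the best known destabilizer of FOS mRNA, did not pass (-0.12 ± 0.11, adjusted p = 0.376).

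**Figure D4:**
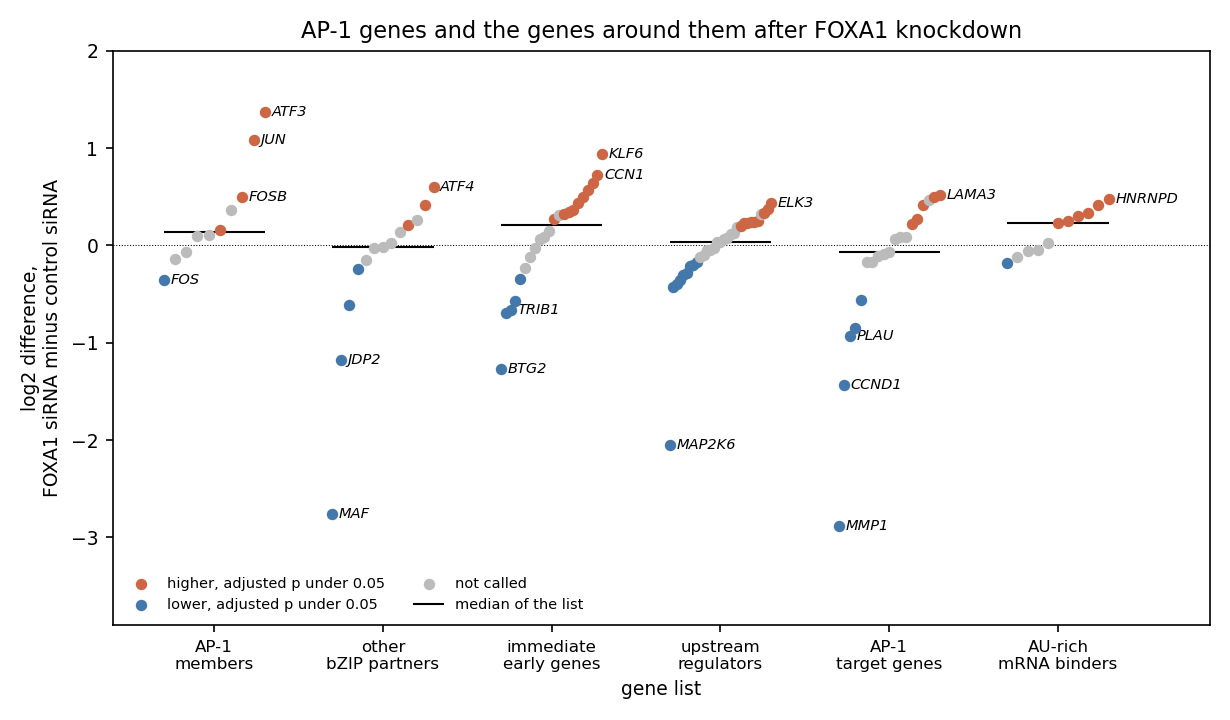
Log2 difference of each tested gene in the 6 lists, sorted within a list; orange genes rose and blue genes fell at an adjusted p under 0.05, grey genes did not pass, and black lines are medians. JUN and ATF3 lie above every gene of the other lists, while JDP2, BTG2, MAP2K6, CCND1, MAF and MMP1 lie below -1.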

How the data were processed

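Per its file headers, the deposited table gives for each library a normalized signal (the gene's count over the library's size factor), and the authors' log2 fold changes, test score, p-values and adjusted p-values. The submitters' processing notes name HISAT2, DESeq2, GRCh38 and GRCm38, without versions or roles. The counter and the strandedness are not given in the sources used here.

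Of 61862 lines, 3 malformed ones were dropped. Groups came from sample titles. Limma 3.58.1 (R 4.3.3; lmFit, eBayes with trend and robust options) was fitted to log2(normalized count + 1), which understates the fold changes of low genes, for 18460 genes with a mean of 10 or more. P-values were adjusted over all of them (Benjamini-Hochberg) and called under 0.05. In every library 100% of values were whole multiples of 1 read to within 0.01 read. On these reads edgeR 4.0.16 (quasi-likelihood) called 9538 genes and DESeq2 1.42.0 called 8493. The other alternatives were pseudocounts of 0.5 and 5, equal library totals, quantile and TMM scaling, no filter and a minimum mean of 50, limma without both options, a replicate block and each library left out.

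Members and lists were chosen with earlier results of these data known. Named genes were all members, FOXA1 and, per list, up to 4 rises and 4 falls with a mean of at least 50. Genes with a profile like that of a called member with a mean of at least 100 were the 3 with the highest Pearson r. MAF, MAFG, EGR1, NR4A1, MMP1, LAMB3, ZFP36 and CDH5 were named after their values were seen. The values of 1 listed target gene that rose are not reported here. On counts simulated for this comparison (18460 genes), limma called 58 of 67 genes changed 1.5-fold, 67 of 67 changed 2-fold, 66 of 66 changed 4-fold and 9 of 18260 unchanged genes. All changed genes had a mean of at least 50, and the counts were scaled by the same size factors used to simulate them. In the data 51.8% of tested genes were called, so the simulation does not cover errors from the choice of scaling.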

Additional observations from a re-analysis of the deposited data

How the results depend on the processing

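Alternatives numbered 17 for each result, or 16 where a mean of at least 50 removed the gene. Of 63 single genes, 46 kept direction and side of the threshold in all of them, JUN, ATF3, JDP2 and ATF4 included, and no gene changed sign. The number of members called, 5, was 3 with limma's plain variance model (no trend or robust options) and from 3 to 6 with 1 library left out. It was 3 without knockdown replicate 1 and 3 without knockdown replicate 2. The number of all tested genes called, 9571, was lower in these settings too. It was 8174 with the plain variance model, 8995 without knockdown replicate 1 and 8770 without knockdown replicate 2. Counts of the other lists stayed within 1.5 times. With equal library totals 3594 genes were higher and 5967 lower, against 4954 and 4617 as deposited, and 3 members rose and 1 fell. Same-numbered libraries did not deviate together (correlations from -0.011 to 0.011), nor did each correlate best with its own number. With the replicate number as a block, 9332 genes and the same number of members, 5, were called. Leaving out a single library changed the call of FOS, FOSB, FOSL1, JUNB or JUND.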

Other observations

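Among 10925 named genes with a mean of at least 100, those whose log2 normalized counts over the 6 libraries ran most like those of JUN were PABPC4 (Pearson r = 0.9998; log2 difference 0.55 ± 0.04 SE), FLII (0.51 ± 0.04) and RRP12 (0.78 ± 0.06). For ATF3 they were CDCA4 (r = 0.999; 0.58 ± 0.08), METTL16 (0.52 ± 0.06) and IPPK (1.21 ± 0.10). For JUNB they were DNMT3B (r = 0.990; 0.19 ± 0.08), ENKD1 (0.17 ± 0.07) and NOP53 (0.19 ± 0.05), and for FOS MYO5C (r = 0.988; -0.18 ± 0.08), PGAP3 (-0.13 ± 0.09) and ZNF675 (-0.32 ± 0.09). The 6 points are 2 groups of 3, so these coefficients are given only as a description.

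CDH5, the gene of VE-cadherin, stood out in level among the endothelial markers. It was at 565, 560 and 537 normalized counts in the controls and 288, 298 and 278 after knockdown (log2 difference -0.94 ± 0.08 SE). The other endothelial markers of the list, PECAM1, VWF and TEK, were each under 6 normalized counts in every library.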
